A study of Homo sapiens with 4 samples.

Results

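DEAD-box and DEAH-box RNA helicases are the genes whose symbols begin with DDX or DHX followed by a number, and 25 of the 14149 peaks in the HuR RIP peak list lay on them. A peak was given to a helicase when the RefSeq transcript named in its annotation belonged to such a gene, whatever gene the list's own name column gave. Of 97 RefSeq genes with such a symbol, 54 are protein-coding and 43 are pseudogenes or non-coding genes, and none of the latter held a peak. The 25 peaks fell on 8 helicase genes, out of 3313 genes with a peak in the whole list.

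RNA from MDA-MB-231 cells, an established human triple-negative breast cancer line, was sequenced after immunoprecipitation (RIP-seq), with 2 samples precipitated with a mouse anti-HuR antibody and 2 precipitated with mouse IgG as the control. HuR, the product of ELAVL1, binds U-rich and AU-rich stretches of RNA. The peak list is 1 table for the whole series, so it holds no value for a single HuR or IgG sample, no SD and no enrichment over IgG, and no comparison of HuR with IgG can be made from it. Each peak is a window of 347 bp with a score from the peak caller HOMER.

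These helicases share a core of RecA-like domains that binds RNA and ATP, and they are named for the amino acids of the motif that holds the metal ion for ATP hydrolysis, Asp-Glu-Ala-Asp or Asp-Glu-Ala-His. DEAD-box members pry open short duplexes locally or clamp RNA, while DEAH-box members move along a strand in the 3′ to 5′ direction. Between them they work at almost every step of an RNA's life, from splicing and export to ribosome assembly, translation and decay.

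Protein-coding helicase genes were listed about as often as protein-coding genes in general. A peak was found on 8 of 54, or 14.8% (Wilson 95% interval 7.70 to 26.6), against 15.4% of all 20056 protein-coding genes. At least 2 peaks lay on 6 of the 54 (11.1%), against 10.8% of all, and at least 7 peaks on 2 (3.70%), against 3.26%. A peak scoring at or above the list's median of 34.0 was present on 4 (7.41%, interval 2.92 to 17.6), against 7.78%. A peak annotated in the 3′-UTR was present on 2 (3.70%, interval 1.02 to 12.5), against 6.09%. All of these shares were near their background, so what follows describes which helicases were listed and where, not a family that stood apart.

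By rank, the 8 genes spread over most of the list, although the highest scores in the list were far above theirs. DDX6 had the highest score at 284.1 and was 252nd of 3313 genes by its highest peak, and DDX17 followed at 265.3 and rank 267. DHX40 reached 60.4 (rank 1079) and DHX33 49.2 (rank 1268). DHX57 at 22.8, DDX60L at 22.5, DHX29 at 11.3 and DDX19A at 9.05 lay lower, with ranks from 2129 to 3257.

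**Figure D1:**
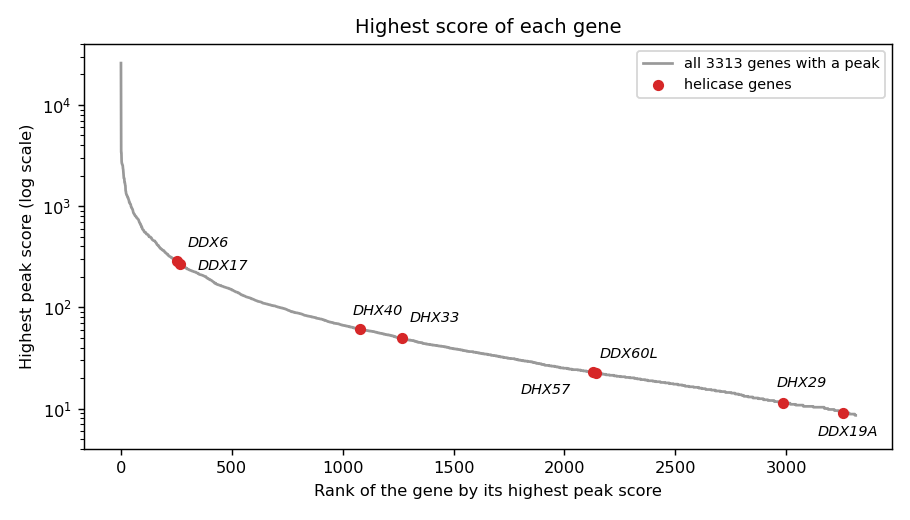
Highest peak score of each of the 3313 genes with a peak (y axis, log scale, HOMER score) against the rank of the gene by that score (x axis), with the 8 helicase genes as red points. DDX6 (284.1) and DDX17 (265.3) sit on the steep upper part of the curve, DHX40 and DHX33 in the middle, and DDX19A (9.05) near its end.

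Read as whole multiples of a common step of 0.2447, the scores allow counting intervals, which cover counting error only. The exact Poisson 95% interval of the highest peak was 268 to 301 for DDX6 and 250 to 282 for DDX17, and it was 53.1 to 68.5 for DHX40 and 42.6 to 56.5 for DHX33. It was 18.4 to 27.9 for DHX57, 18.1 to 27.6 for DDX60L, 8.24 to 15.01 for DHX29 and 6.37 to 12.5 for DDX19A. The intervals did not meet between DDX17 and DHX40, between DHX33 and DHX57, or between DDX60L and DHX29. The other neighbours had overlapping intervals, which does not show that their scores were equal. The spread between samples is not in these intervals, because the list does not separate the samples.

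Over the 25 peaks the median score was 33.3 (quartiles 21.0 and 94.2, 95% interval of the median 22.5 to 85.9), against 34.0 (17.6 and 83.4) over all peaks. Peaks on the same gene are not independent, so intervals over the 25 peaks, here and below, are too narrow. The share at or above the upper quartile of the list was 8 of 25 (32%, interval 17.2 to 51.6), against 25% by definition, and these 8 peaks all lay on DDX6 and DDX17. These 2 genes carried 78.2% of the summed helicase score of 1881.35, with 52.4% on DDX6 and 25.8% on DDX17. The helicases as a whole held 0.177% of the peaks and 0.131% of the summed score of the list. Without DHX33, whose 7 peaks included 5 below the median of the list, the median was 53.1, and without DDX6 it was 23.15.

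**Figure D2:**
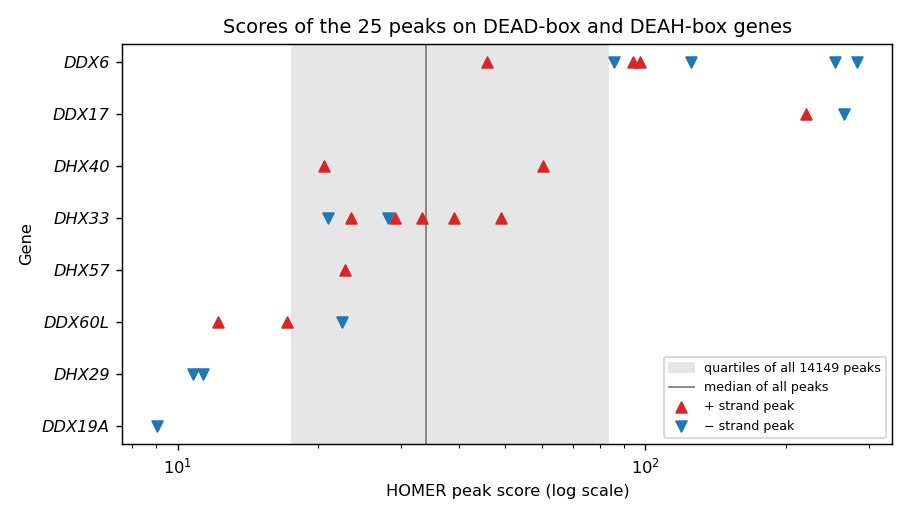
HOMER score (x axis, log scale) of each of the 25 peaks, by gene (y axis), with the strand that the list gives to the peak as the marker. The grey band and line are the quartiles (17.6 and 83.4) and median (34.0) of all 14149 peaks. DDX6 lies above the median at all 7 peaks, whereas DHX57, DDX60L, DHX29 and DDX19A lie below it throughout.

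DDX6 is an activator of decapping and a repressor of translation that is a core component of P-bodies, the cytoplasmic granules where untranslated mRNA collects. It is encoded on the minus strand of chromosome 11 at chr11:118747763-118791164 (hg38) in 14 exons, and 7 peaks lay on it, with scores of 284.1, 254.0, 125.0, 97.2, 94.2, 85.9 and 45.8. The highest, at chr11:118751572-118751918, lay in the 3′-UTR in exon 14, with its centre 360 bases after the stop codon and 3982 bases before the transcript end. The next, at chr11:118785880-118786226, had its centre in the coding part of exon 2. Their Poisson intervals were 268 to 301 and 239 to 270. The other 5 peaks had their centres in introns 2, 4 and 5, from 5 to 137 bp from the nearest exon, and each scored lower than both ends.

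To show what sequence lay under the DDX6 peaks, the 30 bases richest in T are printed for the 3′-UTR peak and for the intronic peak with the most T, both 5′ to 3′ on the strand of the gene, from hg38, with T in capitals. The first is chr11:118751889-118751918 and held 14 T, and the second is chr11:118768084-118768113 in intron 5 and held 22 T.
DDX6 3′-UTR, score 284.1: TTTgTTccacTTgTTTgcacTgTgTgcTga
DDX6 intron 5, score 125.0: TaTTcTTTcTTTTcaggTTTTTTcTTTTTT
The higher score thus belonged to the window with fewer T. The whole window of the 3′-UTR peak held no ATTTA pentamer and 3 matches to TTTTT, although the DDX6 3′-UTR of 4342 bases held 9 ATTTA and 91 TTTTT, counted with overlaps.

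A pair of DDX6 peaks overlapped on opposite strands around exon 5. The minus-strand peak scored 125.0 and the plus-strand peak 94.2, and their centres were 268 bp apart. The bases they shared, chr11:118768313-118768391, are printed 5′ to 3′ on the strand of the gene because they cross the start of exon 5, with the 40 coding bases in capitals and the 39 bases of intron 4 in lower case.
DDX6 intron 4 to exon 5: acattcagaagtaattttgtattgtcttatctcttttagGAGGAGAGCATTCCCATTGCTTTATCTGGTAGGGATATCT
Both peaks thus shared the 3′ splice site of intron 4, and neither centre lay in the exon itself. The 85.9 peak in intron 4 had its centre in an L1MC4 LINE repeat, per the list's detailed annotation.

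**Figure D3:**
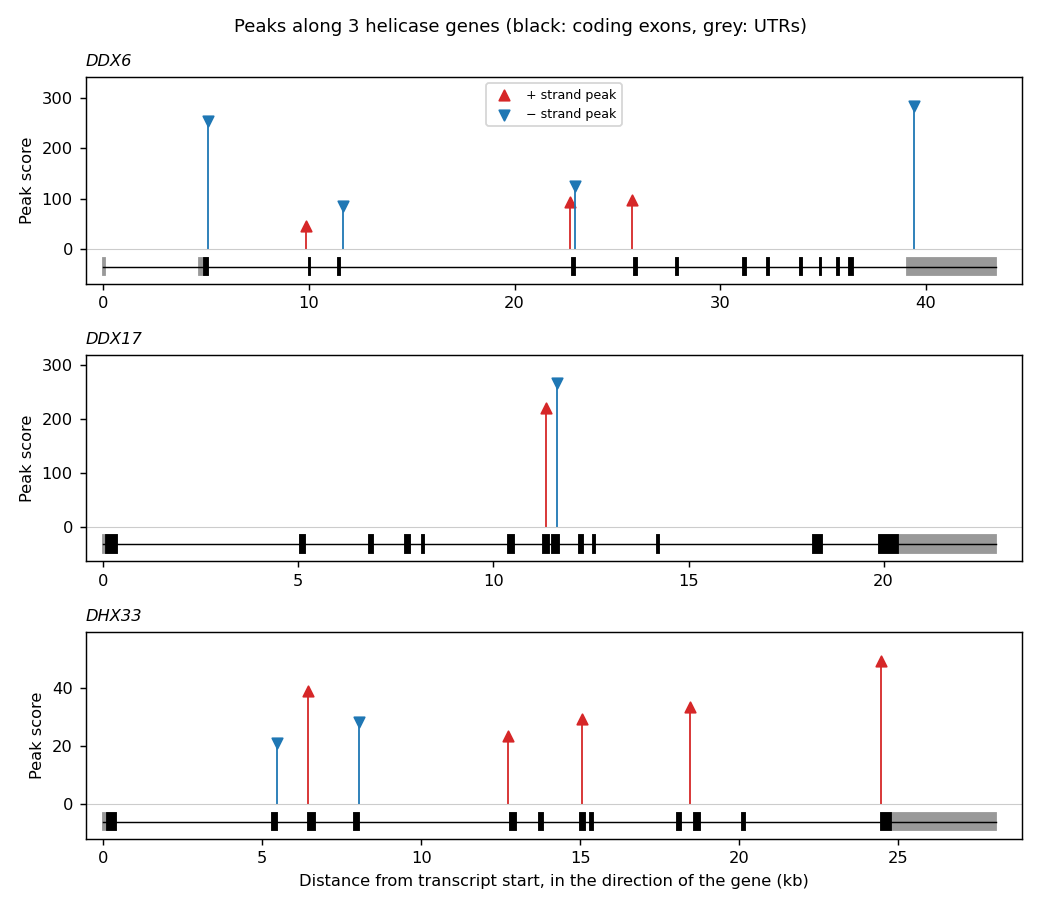
Peak score (y axis) at the peak centre against distance from the transcript start in kb, in the direction of the gene (x axis), for DDX6, DDX17 and DHX33, with the canonical exons below each plot. DDX6 has its highest peaks in the coding part of exon 2 (254.0) and in the 3′-UTR (284.1), the DDX17 pair (265.3 and 220.0) stands on adjacent exons, and the 7 DHX33 peaks (21.0 to 49.2) are spread along the gene.

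DDX17 (p72) is a DEAD-box protein of splicing and transcriptional co-activation, and a close paralogue of DDX5 (p68), which had no peak. Its 2 peaks lay side by side on the minus-strand gene at chr22:38483438-38506311. The minus-strand peak at chr22:38494498-38494844 scored 265.3 (interval 250 to 282) with its centre in exon 8 of 13, and the plus-strand peak at chr22:38494799-38495145 scored 220.0 (interval 206 to 235) with its centre in exon 7. They shared 46 bp, 4 of them coding, at the start of exon 8. No peak was assigned to the DDX17 3′-UTR of 2497 bases, but a plus-strand peak of 233.7 at chr22:38483718-38484064, annotated at the end of the neighbouring KDELR3, had its centre within that 3′-UTR in GENCODE and began after the GENCODE end of KDELR3 at 38483447. KDELR3 is encoded on the other strand, and which transcript gave the signal was not tested.

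The plus-strand DDX17 peak covered the whole of exon 7, and this exon holds the codons for the DEAD motif. It is printed 5′ to 3′ on the strand of the gene (chr22:38494886-38495046, 161 bp, hg38) with the 12 bases of the motif, at residue 325 of 729, in capitals.
DDX17 exon 7, score 220.0: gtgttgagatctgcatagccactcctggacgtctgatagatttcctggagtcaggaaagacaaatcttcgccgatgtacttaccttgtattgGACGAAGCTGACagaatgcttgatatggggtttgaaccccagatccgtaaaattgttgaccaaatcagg
The motif codons lay 18 bp from the centre of the peak. Codons for a motif of the DEAD, DEAH, DECH, DEIH or DEVH type were found in 48 of the 54 genes by reading the canonical coding sequence, and 6 genes had none of these. A peak overlapped such codons in 3 places, which were DDX17 exon 7, DHX33 exon 3 and a DEAD match in exon 22 of DHX29. How often other codons of these genes lay under a peak was not counted. A link between peaks and the motif was therefore not tested. The DHX29 overlap was partial, since the peak ended at 55267755, within the codons at chr5:55267751-55267762. This match was far from the DEVH box of that protein at residue 702 of 1369. The DEAD codons of DDX6, at residue 246 of 483, were 2230 bp from the nearest peak centre.

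DHX33 is a DEAH-box helicase that promotes ribosomal RNA synthesis and takes part in translation initiation. It had 7 peaks, as many as DDX6, but with a summed score of 223.1 against 986.2. The scores were 49.2, 38.9, 33.3, 29.1, 28.1, 23.5 and 21.0, so 2 lay above the median of the list and all lay below its upper quartile. They were spread over the gene at chr17:5440917-5468982 (minus strand, 12 exons), from intron 2 to the coding part of exon 12, and none was in the 3′-UTR of 3288 bases. The highest peak, at chr17:5444338-5444684, also overlapped C1QBP on the same strand, and it and 2 others were named for C1QBP in the list. No peak overlapped another DHX33 peak.

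The peak of 38.9 at chr17:5462387-5462733 had its centre in intron 2, 14 bp from exon 3, and held 160 of the 228 bases of that exon. Exon 3 (chr17:5462319-5462546) is printed 5′ to 3′ on the strand of the gene because it encodes the DEAH motif, at residue 194 of 707, with the 12 motif bases in capitals.
DHX33 exon 3, score 38.9: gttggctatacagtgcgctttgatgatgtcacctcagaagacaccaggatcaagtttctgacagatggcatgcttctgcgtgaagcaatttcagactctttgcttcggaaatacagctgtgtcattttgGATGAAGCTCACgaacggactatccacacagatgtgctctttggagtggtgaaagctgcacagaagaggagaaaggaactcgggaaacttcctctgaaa
The DDX17 and DHX33 motif exons thus lay under plus-strand peaks of minus-strand genes, with scores of 220.0 and 38.9, whose Poisson intervals (206 to 235 and 33.1 to 45.4) did not overlap.

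DHX29 binds the small ribosomal subunit and helps it to scan structured leaders. Its 2 peaks scored 11.3 and 10.8, at chr5:55267409-55267755 in intron 22 and chr5:55270209-55270555 in intron 20. Both were named for CCNO in the list and overlapped the non-coding gene CCNO-DT on the other strand, whose reads cannot be told apart from those of DHX29 where a library does not mark strand. DDX19A, a paralogue of the mRNA export factor DDX19B, had 1 peak of 9.05 at chr16:70346022-70346368. It lay in front of the gene, 708 bp before the canonical start, and overlapped the divergent transcript DDX19A-DT and an unnamed protein-coding gene. DDX19A was therefore listed without any peak inside its canonical transcript.

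DDX60L, an interferon-induced relative of the antiviral factor DDX60, had 3 peaks, of 22.5 in exon 5 of the 38 canonical exons, 17.1 in the 3′-UTR and 12.2 in intron 26. The latter 2 were named for DDX60 in the list, but their transcript and their position (chr4:168356907-168357253 and chr4:168395994-168396340) were those of DDX60L. DDX60 itself had no peak. The 3′-UTR peak lay 1067 bases after the stop codon and 345 bases before the transcript end, and its window held 1 ATTTA. It was the lower of the 3′-UTR peaks of the family, at 17.1 (interval 13.4 to 21.6) against 284.1 on DDX6, and these intervals did not overlap.

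No role was assigned here to DHX40 or DHX57, whose canonical coding sequences hold a DEAH motif and a DEVH motif, respectively. DHX40 had peaks of 60.4 in intron 17 (chr17:59605560-59605906, named for the neighbouring CLTC in the list) and 20.6 in intron 7 (chr17:59575406-59575752, centred on an L1ME3A LINE repeat). The latter peak and its surroundings had a near-identical copy, 99.4% over 693 bp, in the DHX40P1 pseudogene at chr17:59999577-60000269, so its reads could belong to either place. The only DHX57 peak, of 22.8 at chr2:38861228-38861574, lay wholly within the 839 bp of exon 5 of 24.

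The role lists were short, so their counts are given beside the 15.4% of all protein-coding genes that had a peak and none is read as standing apart. Of 10 genes of translation, decay and RNP granules, 3 (30%) had a peak (DDX6, DHX29 and DDX19A), and DDX1, DDX3X, DDX19B, DDX25, DHX9, DHX34 and DHX36 had none. The DDX19A peak lay in front of its gene, and the export factor DDX19B and its paralogue DDX19A were placed in this list, not in that of export. Of 8 DEAD-box genes of splicing and export, 1 (12.5%) had a peak (DDX17), and DDX5, DDX23, DDX39A, DDX39B, DDX41, DDX42 and DDX46 had none. None of 5 DEAH-box splicing factors, which remodel the spliceosome, was listed (DHX8, DHX15, DHX16, DHX35 and DHX38).

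Ribosome biogenesis was the longest role list, and DHX33 was the only member of 16 (6.25%, against 15.4% of all protein-coding genes) with a peak. DDX60L was the only one of 3 interferon-linked genes. The 2 mitochondrial helicases (DDX28 and DHX30), the 3 germ-cell ones (DDX4, DDX43 and DDX53) and the 2 of genome maintenance and RNP assembly (DDX11 and DDX20) had none. The 4 genes with no role assigned included DHX40 and DHX57, whereas DDX59 and DHX32 had no peak. A gene without a peak is only unlisted, because neither its expression nor the depth of the libraries is given.

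**Figure D4:**
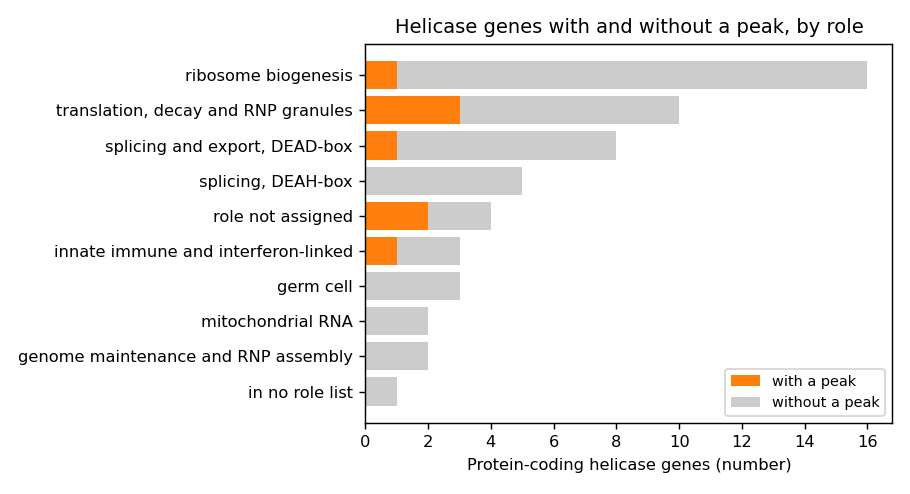
Number of protein-coding helicase genes (x axis) in each role list (y axis), with genes that had a peak in orange and genes without one in grey. In translation, decay and RNP granules 3 of 10 genes had a peak, and in ribosome biogenesis 1 of 16, against 15.4% of all protein-coding genes. The peak of DDX19A, in the first of these lists, lay in front of its gene.

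Helicases and related genes that carry other symbols were counted for comparison. The 3 eIF4A genes, the DEAD-box proteins of translation initiation and the exon junction complex, had no peak. A mixed list of 20 other genes was mostly Ski2-like, UPF1-like and RIG-I-like. It also held YTHDC2, TDRD9 and DQX1, which are nearer to the DEAH-box family, and INTS6L, which is of none of these families. Of the 20, 9 (45.0%) had a peak, against 15.4% of all protein-coding genes and 14.8% of those with a DDX or DHX symbol. The difference was not tested, and the mixed list does not stand for 1 family. These genes had 42 peaks with scores from 8.81 to 77.8, led by DICER1 (10 peaks, highest 77.8), HELZ (13 peaks, highest 67.3) and YTHDC2 (2 peaks, highest 45.3). DDX6 and DDX17 thus exceeded the highest of these relatives, whereas the other 6 helicase genes with a DDX or DHX symbol did not.

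Most helicase peaks had their centres in introns, close to an exon. Introns held 15 of 25 (60.0%, interval 40.7 to 76.6), against 61.9% of all peaks, and all 15 centres were within 347 bp of an exon, against 96.4% of intronic centres in the whole list. Their median distance to an exon was 77 bp (range 2 to 137, n = 15), against 101 bp (n = 8826). Exons outside the UTRs held 7 of 25 (28%, interval 14.3 to 47.6), against 12.6%, and 3′-UTRs 2 of 25 (8.0%, interval 2.22 to 24.97), against 14.6%. The 7 exonic peaks were on DDX17, DHX33, DDX6, DDX60L and DHX57. Peaks on 1 gene are not independent, so these intervals are too narrow, and no test was made.

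The position of a peak depends on how far the caller moved its reads along the strand, which was not stated. At the rear edge of the window, taken along the strand of the peak, 17 of 25 peaks (68.0%, interval 48.4 to 82.8) lay in a coding exon of the canonical transcript, against 53.2% of all peaks, and 5 of 25 in an intron, against 20.2%. At the front edge, 21 of 25 (84.0%) lay in an intron, against 73.8%. The 3′-UTR peaks of DDX6 and DDX60L stayed in the 3′-UTR at all 3 positions. The plus-strand DDX6 peaks of 45.8, 94.2 and 97.2 moved from introns to the coding exons 3, 5 and 6, and the minus-strand peak of 85.9 to exon 4. The opposite move, from a coding exon to an intron, was made by the DDX17 peak of 265.3 (exon 8 to intron 7) and the DHX33 peak of 29.1 (exon 7 to intron 7).

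Helicase peaks were divided between the strands. The TruSeq RNA kit named in the labels does not mark the strand of the RNA, and the list nevertheless gives 1 strand to each peak. The strand of the peak was that of the gene in 12 of 25 (48.0%, interval 30.03 to 66.5), against 53.2% of all peaks. DDX6 had 4 peaks on its own strand and 3 on the other, DHX33 had 2 and 5, and both DHX40 peaks and both DHX29 peaks were on the strand of the gene. Since the 4 peaks in the DDX6 and DDX17 pairs overlapped, the 25 peaks formed 23 separate places.

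Short A- and T-rich motifs of the kind HuR binds were present in helicase windows in shares whose intervals included those of all peaks. Read on the strand of the gene, the pentamer ATTTA was present in 11 of 25 windows (44%, interval 26.7 to 62.9), against 50.6% of all peaks with a canonical transcript. The longer TATTTAT, which contains ATTTA, was in 0 of 25 (interval up to 13.3%), against 9.11%. A run of TTTTT was in 19 of 25 (76.0%, interval 56.6 to 88.5), against 68.5%. The richest 30 bases held a median of 16 T (11 to 22), against 17, and the GC content had a median of 40.1%, against 38.6%.

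T-rich stretches were also found under low-scoring peaks. To show this, the richest 30 bases of 3 of the 4 lowest-scoring windows are printed 5′ to 3′ on the strand of the gene, with T in capitals, beside those of DDX17. They are from DDX60L intron 26 (chr4:168396136-168396165, 21 T), the region before DDX19A (chr16:70346166-70346195, 20 T) and DHX29 intron 22 (chr5:55267558-55267587, 19 T). The DDX17 stretch is from the intron after exon 8 (chr22:38494592-38494621) and held 14 T.
DDX60L, score 12.2: TTTTcaTTacTTaaaagTTTTTTTTTTTTT
DDX19A, score 9.05: TcTTcTgTTgcgTTTTggTTTTTgTTTTcT
DHX29, score 11.3: TTTaaaTTTaTTTTTagTTaTTTcaTcTgT
DDX17, score 265.3: gaTaTTTTacTcTgaTTTgaTaaTgcTgaT
These 30-base stretches held more T than those of the DDX17 peak and the DDX6 3′-UTR peak, both with 14 T. Over the whole windows the order differed, with 27.4% T for DDX60L and 28.8% for DDX19A against 27.1% for DDX17 and 30.3% for the DDX6 3′-UTR peak, and DHX29 was at 38.3%. The DHX29 stretch contains ATTTA, and the DDX60L and DDX17 stretches do not.

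The median transcript was longer among listed than among unlisted helicase genes. The canonical exons summed to a median of 4823 bp in the 8 genes with a peak (2923 to 6759) and 3615 bp in the 46 without (1498 to 7424). For the 3′-UTR the medians were 1404.5 and 688.5 bp, and the ranges overlapped in both measures. Among all protein-coding genes the exon sums were 4768 and 2624 bp, and the 3′-UTRs 2499 and 838 bp, so a difference in the same direction was present throughout the list. DDX25 (7424 bp), DHX36 (6723 bp) and DDX52 (6383 bp) were as long as DDX6 (6128 bp) and had no peak.

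ATTTA in the 3′-UTR did not separate listed from unlisted helicases. The median density was 1.80 per kb both in the 8 genes with a peak and in the 46 without, and pooled over all bases it was 1.79 and 2.44 per kb. For TTTTT the median density was 6.94 per kb in the listed genes (2.31 to 21.1) and 5.83 per kb in the unlisted ones (0 to 27.6), with overlapping ranges. Pooled over all bases it was 12.2 against 7.55 per kb, and 8.64 per kb in the listed genes without DDX6, which held 91 of the matches. DHX57, which was listed for a coding exon, had no ATTTA in its 3′-UTR of 570 bases.

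**Figure D5:**
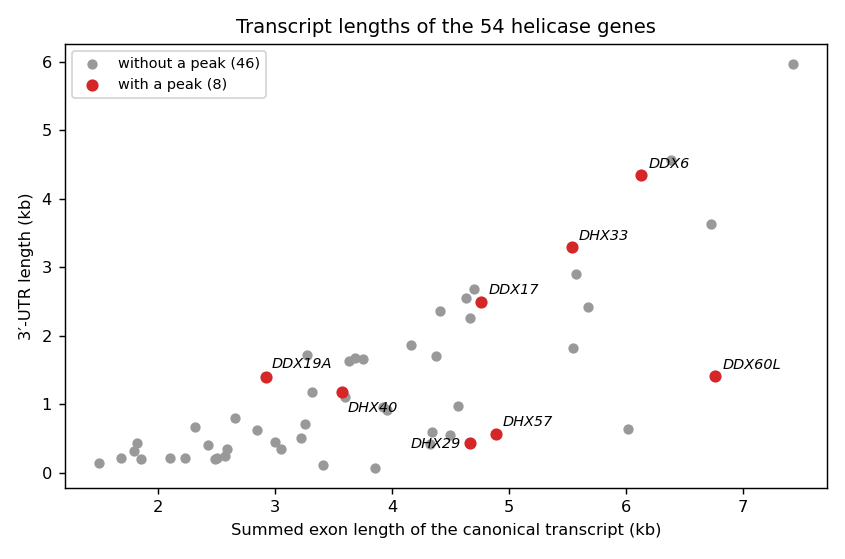
Length of the 3′-UTR (y axis, kb) against the summed exon length (x axis, kb) of the canonical transcript of the 54 protein-coding helicase genes, with the 8 that had a peak in red and the 46 without in grey. The red points overlap the grey ones, which include the longest transcript (DDX25).

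The gene names in the list would give another set of helicases. For 9 of 25 helicase peaks (36%, interval 20.2 to 55.5) the name column held another gene, against 41.0% of all peaks with both names. In the other direction, 8 peaks were named for a helicase although their transcript was that of another gene or had no match. Those named DDX55 scored 3392.2, 2601.3 and 2598.4, far above any helicase peak, but lay on the last exon of TMED2, which encodes a cargo receptor of the early secretory pathway and ends at position 123598582 of chromosome 12, before DDX55 starts at 123602077. The 2 peaks named DDX25 (24.2 and 20.8) were on CDON, the 2 named DDX58 (32.8 and 19.6) were on RIGI, the current symbol of that gene, and the peak named DDX41 (8.81) had a transcript that was not matched.

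The sequence around several helicase peaks, flanks included, resembled other places in the genome. Whether reads were shared with those places was not tested. The sequence around the 254.0 peak of DDX6 resembled the DDX6P1 pseudogene at 90.1% over 352 bp. That around the 284.1 peak resembled a stretch of chromosome 13 (chr13:86277276-86277964) at 91.0% over 699 bp. The longest matches of 3 other DDX6 peaks lay nearby, in the DDX6P2 pseudogene. They were at 93.3% over 135 bp for the peaks of 125.0 and 94.2 (chr13:86275864-86275998) and at 92.9% over 98 bp for the peak of 85.9. No stretch of 50 bp or more at 98% identity was found for any of the 7 DDX6 peaks. The DHX29 peak of 11.3 had a copy at 95.7% over 138 bp on chromosome 1. No copy at 90% identity was found for the DDX17 peak of 265.3, the DHX57 peak or the 3 DDX60L peaks. The same held for the DHX33 peaks of 49.2, 33.3 and 29.1. For the DDX17 peak of 220.0, the peak with its flanks matched 17654 other places at 90% identity, the longest over 90 bp, and 16 of them reached 98% over at least 50 bp. The DHX33 peaks of 23.5, 28.1 and 38.9 had 385, 11501 and 4798 places at 90% identity, of which 47, 19 and 1 reached 98% over at least 50 bp. The DDX19A peak had 9431 and 15. The DDX6 peaks of 97.2 and 125.0 had 1092 and 540 places at 90% identity. For the peaks with many such places, whether the matches lay in the peak or in its flanks was not examined. Their counts are not counts of copies of the gene.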

How the data were processed

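RNA was precipitated from MDA-MB-231 lysate with anti-HuR antibody (2 samples) or mouse IgG (2 samples), and samples were grouped by the antibody in the labels. Per the labels the authors used STAR, HOMER and hg38. Versions, settings, pooling and the threshold behind their selection of peaks with altered abundance are not given in the sources used here. The methods name ANNOVAR, whereas the file header holds a HOMER annotation command.

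The deposited peak score is HOMER's own value, on a scale the authors did not state, and it carries no SD. The focus ratio, a deposited fraction, was not used in any result. The depth of the libraries is unknown. Of 11121 scores under 100, 100.0% were whole multiples of 0.2447 within rounding (0.055, or 0.0055 under a score of 10), against 43.3% by spacing alone, and that 1 step is 1 read is not stated. Poisson intervals (steps), Wilson intervals (shares) and order-statistic intervals (medians) are at 95%. The Poisson intervals cover counting error only and take each step as an independent read. Reads carry no molecular identifiers, so duplicate reads are not separated. The Wilson and order-statistic intervals take genes or peaks as independent draws. None of these intervals covers the spread between samples.

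The host gene came from the RefSeq transcript in the annotation, matched for 13838 of 13929 peaks. Exons came from canonical GENCODE 44 transcripts (13707 peaks) on hg38, the build of the list, with coordinates 1-based. Sequence motifs were counted with overlaps on the strand of the gene only. Copies were sought with blastn 2.17.0 in 693 bp around each peak, at 90% identity and a word of 28 bp. Python 3.11.15, pandas 2.3.3, scipy 1.17.1, numpy 2.4.6 and matplotlib 3.10.9 were used. The interval functions were tested on simulated draws, and the position and merging functions on small made-up cases. The other steps were not tested in this way.

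No test between groups was possible. Values by peak are given for the 2 highest helicases of each role list, the genes with the most peaks and the 5 highest genes. DDX19A, outside this rule, was added after its value was seen. The helicases and the role lists were chosen with earlier results of these data known. Alternatives were the gene column, a score threshold, older symbols, GENCODE at the centre, merged peaks and the edges of the window in place of its centre.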

Additional observations from a re-analysis of the deposited data

How the results depend on the processing

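A count was taken as kept within 1.5 times its value, and any other value within its own 95% interval, or the range of the 2 genes for the log2 difference, all of which are wide here. Of 26 alternatives over 8 results, 22 were kept, 3 moved and 1 reversed. Those kept include a median score of 23.15 to 53.1 (33.3 as reported) and a median highest score per gene of 24.2 by the gene column (36.0 as reported). The interval for the highest score per gene was the full range of the 8 genes (9.05 to 284.1), so its alternatives could hardly fall outside. With only peaks at or above the median score, genes with a peak fell from 8 to 4 and peaks from 25 to 12, by construction. With TTTTT in place of ATTTA, the share of 3′-UTR peaks with the motif went from 50% to 100%, over 2 peaks. Within a gene, scores in the 3′-UTR minus those in coding exons had a median log2 difference of -0.12 at the centre (DDX6 0.16, DDX60L -0.40) and 0.79 at the rear edge of the window (1.59 and -0.02), where more peaks counted as coding. It rests on 2 genes and has no stable direction. Taking the highest score in place of the median could not change it at the centre, where each gene had 1 peak of either kind.

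The count of 8 genes was 11 by the gene column and 10 with older symbols. It was 8 by the GENCODE gene span under the centre, with DDX46 in place of DDX19A. The peak in the DDX46 span (41.4) lay outside the canonical DDX46 transcript and was annotated to an intron of C5orf24. The count was 6 without peaks that overlap a second gene, an alternative chosen after seeing the data. No paired analysis was possible because each peak has 1 value for the whole series. The unknown depth limits what an unlisted gene means.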
